A study of Homo sapiens with 24 samples.

Results

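Nalm6, an established line of B cell precursor acute lymphoblastic leukaemia, was compared after asparaginase had been added to ibrutinib and after ibrutinib alone. All libraries labelled Nalm6 with both drugs, or Nalm6 with ibrutinib, were taken, which gave 3 combination libraries and 3 ibrutinib libraries, 6 of the 24 in the series. RNA sequencing was done on Nalm6 and on Sem, a second line of the same leukaemia that carries a rearranged KMT2A gene, with 3 libraries for each of 4 treatments per line. The combination cells had received 10 µM ibrutinib and asparaginase for 24 h, and the ibrutinib cells 10 µM ibrutinib alone for 24 h, so that both groups carried the same kinase inhibitor. For asparaginase the design text and the sample characteristics give 1 IU/ml and the treatment description gives 0.5 IU/ml; the dose used is not known. Nalm6 libraries with asparaginase alone and untreated Nalm6 libraries served to set the change against the same addition without ibrutinib; the time at which untreated cells were harvested was not stated. The samples were described as triplicates and separate cultures were not described, so p-values refer to how far these libraries scatter, and that scatter may be technical.

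Asparaginase is an enzyme that breaks down asparagine, and also glutamine, in the medium; leukaemic lymphoblasts make little asparagine synthetase and depend on outside supply. Lack of an amino acid leaves transfer RNAs uncharged, which activates the kinase GCN2; it phosphorylates the translation factor eIF2, lowers protein synthesis in general and raises translation of the transcription factor ATF4, whose targets include amino acid enzymes, transporters and transfer RNA synthetases. The same lack is sensed by mTORC1, a kinase that drives ribosome production and growth. Ibrutinib binds covalently to BTK, the kinase downstream of the B cell receptor and its immature form, the pre-B cell receptor.

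Reads in genes numbered 15.7 to 17.2 M per combination library and 15.4 to 15.9 M per ibrutinib library. Levels are FPKM, fragments per kilobase of gene and per 1 M reads, here multiplied by a scaling factor per library. That factor was 0.915 to 0.919 in combination libraries and 0.957 to 0.973 in ibrutinib libraries. The worth of 1 read per kb of gene was 0.0534 to 0.0585 FPKM in combination libraries and 0.0602 to 0.0634 FPKM in ibrutinib libraries. Combination library 1 stood apart: its correlation with the other combination libraries, over log2 levels of all genes tested, was 0.977 and 0.978, against 0.986 between libraries 2 and 3 and 0.987 within the ibrutinib group. Between the groups the correlation was 0.937 to 0.948. The slope of a library's deviation from the mean level, per 10 points of transcript GC content, was -0.117 in combination library 1, against 0.0431 and 0.0505 in the other 2 and -0.0631 to -0.0305 in ibrutinib libraries (log2); results are therefore also given without that library where they rest on it. Reads from mitochondrial genes made up 4.30% to 4.66% in combination libraries and 3.58% to 3.81% in ibrutinib libraries. All 12 markers of B cell precursors were expressed and 7 of them rose, 2 fell; their summed level was 2612 to 2641 FPKM with the combination and 2909 to 3088 FPKM with ibrutinib. Of 14 myeloid markers 2 were expressed (LYZ and CD33) and 6 were listed at 0, and none of 12 erythroid and stromal markers was expressed (7 listed at 0). In bulk RNA, fewer cells of a type and less RNA per cell cannot be told apart.

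A change is given as the difference of log2(FPKM + 1) between combination and ibrutinib libraries, with its standard error, which understates the change of low genes; a gene was called when limma's moderated test gave an adjusted p under 0.05 (Benjamini-Hochberg over all genes). Of 13237 genes with at least 1 FPKM in at least 3 libraries, 7566 were called (57.2%): 3905 rose (29.5%) and 3661 fell (27.7%), and the median change was 0.03. Where levels were rescaled to the same sum in every library (TPM), 4808 rose and 2938 fell and the median of all genes moved to 0.13, so changes are relative to the chosen scale. Without combination library 1, 3926 genes rose and 3679 fell, and 6920 of the 7566 calls (91.5%) kept their direction and side. All 3 combination libraries lay above all 3 ibrutinib libraries for 4303 genes (32.5%) and below them for 4015 (30.3%). Changes of at least 2-fold were found for 308 genes that rose and 312 that fell, and of at least 4-fold for 13 and 2.

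The direction of change went with the level of the gene. Among the 279 genes with a mean above 100 FPKM over the 12 Nalm6 libraries, 16.9% rose and 55.6% fell, with a median change of -0.31. Among the 856 genes with a mean under 1 FPKM 26.9% rose and 6.31% fell. A gene with so low a mean passed the filter through libraries where it was higher, so this balance is partly set by the filter. At least 1 FPKM was reached by 12697 to 12735 genes in combination libraries and 12119 to 12217 in ibrutinib libraries. Between 1 and 5 FPKM 32.3% rose and 14.4% fell, between 5 and 20 FPKM 31.7% rose and 31.9% fell, and between 20 and 100 FPKM 20.7% rose and 51.9% fell. Long intergenic RNAs were called higher in 34.5% and lower in 8.73% of 447 tested, whereas of 97 small nucleolar RNAs 1 rose and 16 fell.

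Genes of the integrated stress response rose together. Of 25 tested genes in a list of ATF4 targets and stress response regulators, 20 rose and 1 fell, with a median change of 0.60. Some lists share members, so their counts are not independent: DDIT4 and SESN2, for example, are in this list and in that of mTORC1. The counts of this and the later lists stand against 29.5% of all genes tested that rose and 27.7% that fell. The leading gene was PPP1R15A (ENSG00000087074, chromosome 19, 48872392 to 48876057, GRCh38), which encodes GADD34, the phosphatase subunit that reverses eIF2 phosphorylation. It stood at 52.3, 54.4 and 54.7 FPKM in combination libraries, against 8.43, 9.05 and 10.1 FPKM in ibrutinib libraries. The groups lay far apart and the change was 2.43 ± 0.075 (adjusted p = 3.2e-09). TRIB3, a pseudokinase that restrains ATF4, had 115, 146 and 150 FPKM with the combination, against 33.2, 32.1 and 30.6 FPKM with ibrutinib. Its lowest combination value was in library 1, still above every ibrutinib value, and the change was 2.06 ± 0.108 (adjusted p = 8e-08). DDIT3, the stress transcription factor CHOP, had 62.6, 54.6 and 59.5 FPKM in combination cells, against 18.3, 18.6 and 20.4 FPKM in ibrutinib cells, a change of 1.58 ± 0.085 without overlap. ATF4 itself did not follow: its messenger stood at 213 ± 3.65 FPKM with the combination and 212 ± 2.46 FPKM with ibrutinib (SD, n = 3 each), a change of 0.01 ± 0.042 (adjusted p = 0.91). It was called higher with TPM (adjusted p = 0.029) and with quantile scaling (adjusted p = 0.00012). GPT2, an alanine transaminase, was the member that fell, by 0.30 on the log2 scale, and it was no longer called after quantile scaling (adjusted p = 0.078).

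CHAC1, which degrades glutathione and is a known ATF4 target, had 11.7, 14.3 and 15.2 FPKM in combination libraries, against 7.69, 10.5 and 8.19 FPKM in ibrutinib libraries. The groups were separate but close, with a change of 0.59 ± 0.128 (adjusted p = 0.0022). ASNS is the asparagine synthetase that replaces the amino acid removed by the drug. Whether overlapping genes shared its reads was not tested, so its listed level may differ from its transcription. ASNS was listed at 1.04, 0.933 and 1.19 FPKM in combination cells, against 0.594, 0.701 and 0.654 FPKM in ibrutinib cells. It rose by 0.31 ± 0.092 (adjusted p = 0.013), a call that was lost after quantile scaling (adjusted p = 0.15) and without combination library 3 (adjusted p = 0.056). The promoters of both genes are shown because each holds a match to TGATGNAAN, the letters used here for the element bound by ATF4 with C/EBP partners (N stands for any base). RefSeq promoters on GRCh38.p14, from 250 bases before to 50 after the start, are written 5′ to 3′ along the gene with the match on either strand in capitals; CHAC1 is chr15:40953221-40953520 (plus strand) and ASNS is chr7:97872359-97872658 (minus strand).
CHAC1: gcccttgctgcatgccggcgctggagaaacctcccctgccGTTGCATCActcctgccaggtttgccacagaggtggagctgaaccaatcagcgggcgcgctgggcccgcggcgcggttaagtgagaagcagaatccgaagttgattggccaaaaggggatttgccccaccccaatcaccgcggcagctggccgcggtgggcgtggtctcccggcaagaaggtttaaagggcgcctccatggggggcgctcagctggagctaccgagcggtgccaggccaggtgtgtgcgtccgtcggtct
ASNS: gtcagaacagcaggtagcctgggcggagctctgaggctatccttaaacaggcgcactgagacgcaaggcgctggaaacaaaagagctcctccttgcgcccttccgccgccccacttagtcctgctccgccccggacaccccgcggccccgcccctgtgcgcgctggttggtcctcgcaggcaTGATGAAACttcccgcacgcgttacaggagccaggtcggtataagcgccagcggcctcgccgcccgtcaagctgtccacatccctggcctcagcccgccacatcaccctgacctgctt
The CHAC1 match lies on the opposite strand, 210 bases before the start, and the ASNS match 68 bases before it. Among genes of the ATF4 list with a promoter sequence, 4 of 25 held a match (16%), against 3.61% of 35116 promoters. Of those tested for expression 3 of 22 held one. ASNS is not in that list, and the promoters of expressed genes alone were not counted. The promoters of PPP1R15A, TRIB3 and DDIT3 held none in this window, which says only that these letters are not there.

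**Figure D1:**
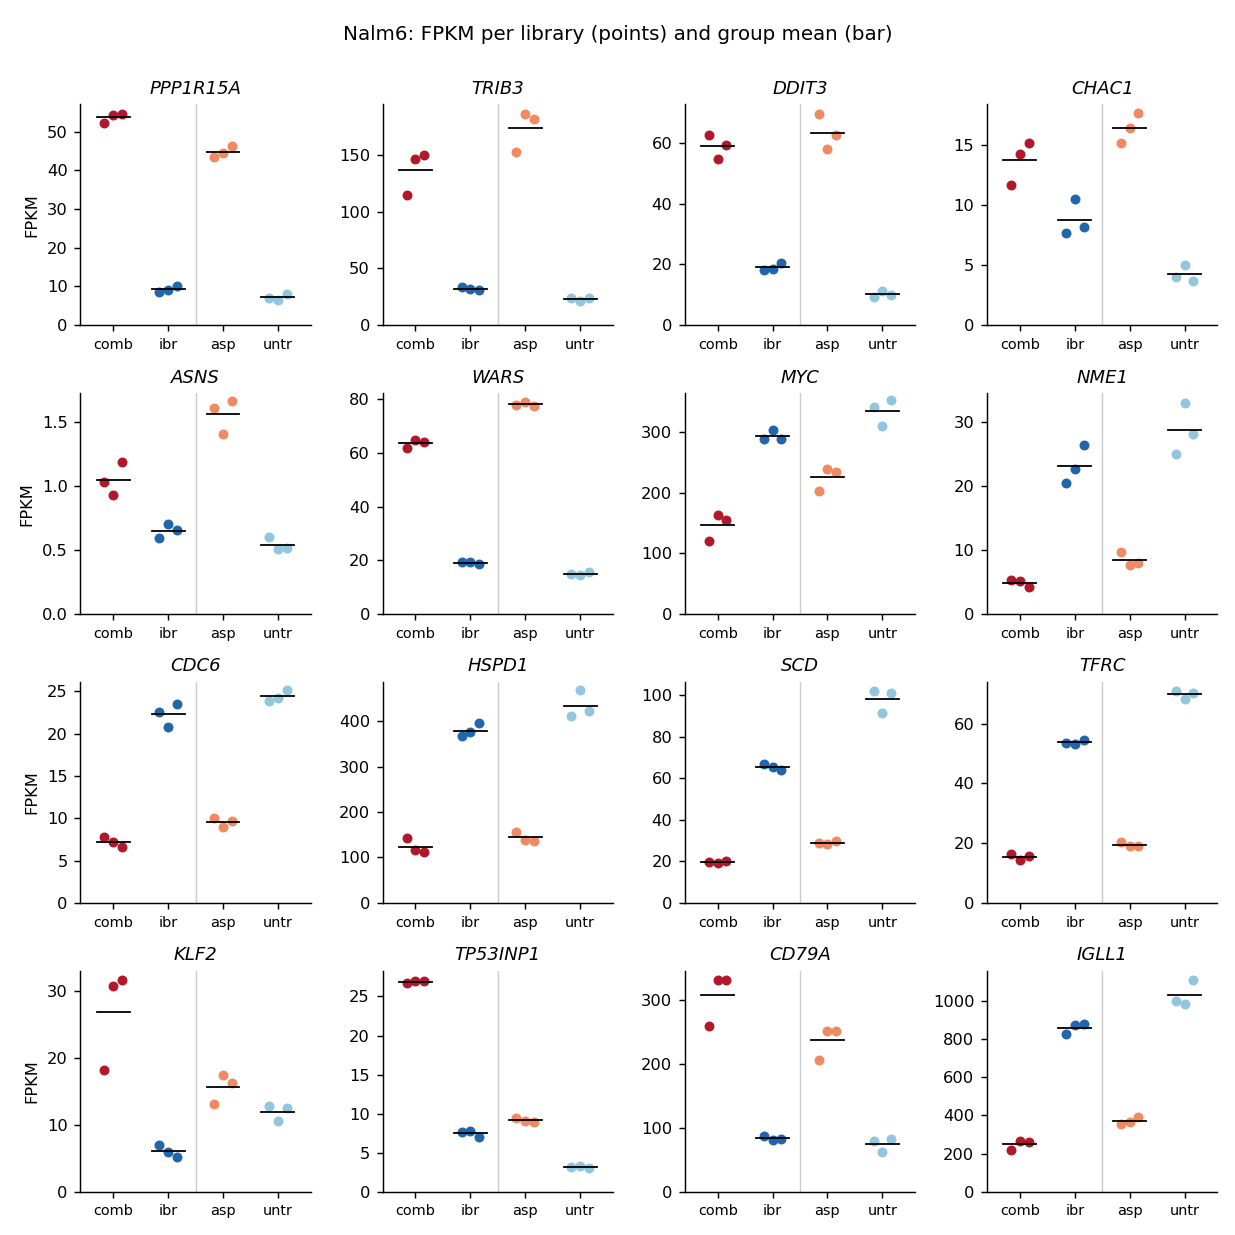
FPKM of 16 genes in each Nalm6 library (points; vertical axes linear from 0; bars mark group means), for combination and ibrutinib on the left and asparaginase and untreated on the right of each panel. The 3 combination points of PPP1R15A sit between 52.3 and 54.7, above the ibrutinib points at 8.43 to 10.1, while those of NME1 sit at 4.21 to 5.29, below the ibrutinib points at 20.5 to 26.4.

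Amino acid enzymes did not rise with the stress regulators. In a list of amino acid synthesis enzymes 3 of 24 rose and 16 fell, with a median of -0.33. GOT1, the cytosolic aspartate transaminase, rose by 0.95 ± 0.070, at 14.4, 13.8 and 12.7 FPKM with the combination and 6.16, 6.86 and 6.74 FPKM with ibrutinib. Its mitochondrial counterpart GOT2 went the other way, by -0.97. MTHFD1, a folate enzyme that supplies one-carbon units, fell by 1.08 on the log2 scale to 10.9, 11.3 and 10.9 FPKM in combination libraries, against 24.6, 24.3 and 24.4 FPKM in ibrutinib libraries. PSAT1 and PHGDH, enzymes of serine synthesis chosen after their values were seen, changed by -0.21 (called) and -0.15 (adjusted p = 0.077).

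Of 18 amino acid transporters 8 rose and 5 fell (median 0.06). Of all genes tested 29.5% rose and 27.7% fell, and the share of transporters that fell was close to the latter. SLC43A1, a carrier of large neutral amino acids, rose by 0.81, and SLC7A11, the cystine carrier, by 0.71. SLC38A5, a glutamine and asparagine carrier, fell by 1.00 on the log2 scale, with 7.22, 9.06 and 8.43 FPKM in combination cells and 17.9, 18 and 16.4 FPKM in ibrutinib cells. SLC7A5, the main leucine carrier, was at 169.5 ± 26.7 FPKM with the combination and 157 FPKM with ibrutinib, with overlapping libraries (adjusted p = 0.56).

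Among 20 cytoplasmic transfer RNA synthetases, which charge transfer RNAs with their amino acids, 4 rose and 14 fell (median -0.32; 9 fell after quantile scaling). WARS, the tryptophan enzyme, stood out, with 61.8, 64.9 and 64.1 FPKM in combination libraries and 19.2, 19.4 and 18.8 FPKM in ibrutinib libraries. The change of 1.68 ± 0.041 (adjusted p = 2.3e-09) was far larger than the spread in either group. SARS, the serine enzyme, rose by 0.43, while FARSB, a subunit of the phenylalanine enzyme, fell by 1.16 and VARS, the valine enzyme, by 0.94 on the log2 scale.

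Translation control and nutrient sensing moved in different directions. In the list of eIF2 kinases and translation factors 1 of 20 rose and 15 fell (median -0.33). EIF2B3, a subunit of the exchange factor of eIF2, fell by 1.23 and EIF4G1, the scaffold of the cap-binding complex, by 0.80 on the log2 scale. PPP1R15B, the constitutive counterpart of GADD34, rose by 0.16. Of 23 genes around mTORC1, 12 rose and 3 fell (median 0.17; 5 fell after quantile scaling). DDIT4, the mTORC1 inhibitor REDD1, had 124, 132 and 129 FPKM with the combination, against 59.0, 65.0 and 64.5 FPKM with ibrutinib (change 1.01 ± 0.056). FNIP1, a partner of folliculin at the lysosome, rose by 1.05, while MLST8, an mTOR subunit, fell by 0.55 and the S6 kinase RPS6KB1 by 0.38 on the log2 scale.

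Genes of growth fell, and of the 35 lists the lowest median was that of MYC. All 35 genes in a list of MYC and genes known to be induced by it fell, with a median of -1.07 and a range of -2.04 to -0.45. This list and the others were chosen with earlier results of these data known, so their counts are descriptions and not independent support. MYC (ENSG00000136997) itself had 121, 164 and 156 FPKM in combination libraries, against 288, 303 and 288 FPKM in ibrutinib libraries. Library 1 was the lowest, and the change was -1.01 ± 0.106 (adjusted p = 1.4e-05), or -0.87 without that library. NME1, a nucleoside diphosphate kinase, led the list with 5.29, 5.08 and 4.21 FPKM in combination cells, against 20.5, 22.6 and 26.4 FPKM in ibrutinib cells (change -2.04 ± 0.125, adjusted p = 2.5e-07). TFRC, the transferrin receptor that brings iron into dividing cells, had 16.2, 14.4 and 15.8 FPKM with the combination and 53.6, 53.1 and 54.5 FPKM with ibrutinib, a change of -1.73.

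Ribosome biogenesis followed, with 43 of 45 genes lower and none higher (median -0.78). EBNA1BP2, a factor of the large ribosomal subunit, fell by 1.63 and NHP2, a protein of box H/ACA particles, by 1.44 on the log2 scale. Ribosomal proteins themselves moved less, and their direction hung on the scale: 3 of 79 rose and 39 fell (median -0.20), 11 rose and 29 fell with TPM, and 25 rose and 20 fell after quantile scaling (median 0.04). Among snoRNA host genes 4 of 20 rose and 10 fell (median -0.33); ZFAS1 rose by 1.05 and SNHG4 fell by 1.42 on the log2 scale. Of 24 nucleotide synthesis genes 23 fell and none rose (median -0.81). SLC29A1, the equilibrative nucleoside carrier, fell to 6.37, 7 and 7.13 FPKM in combination libraries, against 28.0, 27.7 and 27.8 FPKM in ibrutinib libraries (change -1.88 ± 0.046, adjusted p = 2.3e-09), and PAICS, a purine enzyme, fell by 1.53 on the log2 scale.

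Of 42 DNA replication genes 41 fell and none rose, with a median of -0.90. CDC6, which loads the replicative helicase, had 7.83, 7.19 and 6.57 FPKM in combination cells, against 22.6, 20.9 and 23.5 FPKM in ibrutinib cells (change -1.51 ± 0.066, adjusted p = 2.7e-08). GINS2, a helicase subunit, fell by 1.46 on the log2 scale. MCM6, another helicase subunit, chosen for its promoter after its values were seen, had 44.7 ± 0.755 FPKM with the combination and 105 FPKM with ibrutinib (SD, n = 3). The promoters of NME1, CDC6 and MCM6 are shown because they hold CACGTG, the E-box of MYC and related factors (it reads the same on both strands), or TTTCGCGC or TTTGGCGC, letters of the E2F element; matches on either strand are in capitals. On GRCh38.p14 in RefSeq they are chr17:51153309-51153608 (plus), chr17:40287629-40287928 (plus) and chr2:135876394-135876693 (minus).
NME1: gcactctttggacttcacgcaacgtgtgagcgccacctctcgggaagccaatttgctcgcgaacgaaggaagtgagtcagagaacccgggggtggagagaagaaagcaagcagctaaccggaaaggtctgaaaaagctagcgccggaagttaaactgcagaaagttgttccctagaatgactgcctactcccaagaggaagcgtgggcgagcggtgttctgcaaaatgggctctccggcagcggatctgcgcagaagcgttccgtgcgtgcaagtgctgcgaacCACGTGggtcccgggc
CDC6: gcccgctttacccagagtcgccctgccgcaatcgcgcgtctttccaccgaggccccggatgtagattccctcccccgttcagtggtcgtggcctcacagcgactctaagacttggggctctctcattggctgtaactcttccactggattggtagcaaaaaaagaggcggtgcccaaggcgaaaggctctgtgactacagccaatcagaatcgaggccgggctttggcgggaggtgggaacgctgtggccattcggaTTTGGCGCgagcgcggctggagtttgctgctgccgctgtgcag
MCM6: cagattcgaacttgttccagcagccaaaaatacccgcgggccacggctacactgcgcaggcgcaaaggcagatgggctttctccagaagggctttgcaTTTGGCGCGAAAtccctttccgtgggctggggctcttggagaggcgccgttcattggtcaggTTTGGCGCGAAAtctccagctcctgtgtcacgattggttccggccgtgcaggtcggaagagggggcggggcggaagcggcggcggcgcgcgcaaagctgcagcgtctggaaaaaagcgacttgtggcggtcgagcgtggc
The NME1 match starts 34 bases and the CDC6 match 7 bases after the start. MCM6 holds 4 matches in 2 overlapping pairs that begin 152, 148, 90 and 86 bases before the start, each pair read on both strands. Of MYC-list genes with a promoter sequence 12 of 27 held the E-box (44.4%), against 7.26% of all promoters, and of replication genes 11 of 37 held an E2F match (29.7%), against 1.15%.

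Cell cycle control was divided. Of 20 G1 regulators 5 rose and 12 fell (median -0.35). The kinase inhibitors CDKN1A (p21) and CDKN1B (p27) rose by 1.04 and 0.96: CDKN1A had 51.6, 64.9 and 64.5 FPKM with the combination and 28.0, 30.2 and 27.6 FPKM with ibrutinib, and CDKN1B had 56.9, 54.8 and 54.0 FPKM with the combination and 26.9, 28.1 and 28.4 FPKM with ibrutinib. Cyclin E2 (CCNE2) fell by 1.44 and the transcription factor E2F2 by 1.36 on the log2 scale. Genes of mitosis did not fall with those of replication: 15 of 35 rose and 11 fell (median 0.15), 20 rose and 6 fell after quantile scaling, and 13 rose and 12 fell without combination library 1 (median 0.07). CENPA, the centromeric histone, had 13.8, 15.6 and 12.2 FPKM in combination cells, against 7.41, 8.88 and 8.05 FPKM in ibrutinib cells (change 0.70 ± 0.083). MAD2L1, a spindle checkpoint protein, fell by 0.99 on the log2 scale. Of 31 clustered histone genes 7 were expressed and 6 rose (median 1.24). HIST1H2AC had 10.3, 9.06 and 6.34 FPKM with the combination and 1.55, 0.562 and 1.52 FPKM with ibrutinib. HIST1H2BD, HIST1H3E and HIST2H2BE had means under 1 FPKM with ibrutinib and passed the expression filter through other libraries. Without the filter 10 rose, none fell and the median was 0.13. Histone transcripts mostly lack poly(A) tails and their copies share sequence, so the levels are uncertain.

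Genes of lipid synthesis were lower. In cholesterol synthesis and uptake 16 of 24 genes fell and 1 rose (median -0.47), and in fatty acid synthesis 9 of 13 fell and none rose (median -0.62). HMGCS1, which makes HMG-CoA, had 16.4, 13.5 and 14.4 FPKM in combination libraries and 40.0, 40.4 and 42.3 FPKM in ibrutinib libraries (change -1.41 ± 0.070). SCD, the fatty acid desaturase, had 19.8, 19.2 and 20.4 FPKM in combination libraries, against 66.7, 65.2 and 64.1 FPKM in ibrutinib libraries (change -1.67 ± 0.049). In both genes the groups were separated by more than their own range. A search for TCACNCCAC, letters of the SREBP element, found a match in 1 of 19 promoters of the cholesterol list (5.26%) and 1.13% of all promoters.

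Chaperones fell as a class. Of 26 heat shock proteins 23 fell and none rose (median -0.93), and of 36 proteasome genes 31 fell and none rose (median -0.44). HSPD1, the mitochondrial chaperonin, had 144, 117 and 111 FPKM with the combination and 367, 376 and 396 FPKM with ibrutinib. HSPA8, the constitutive HSP70, had 263, 231 and 230 FPKM with the combination, against 544, 540 and 566 FPKM with ibrutinib. In neither gene did the groups overlap. The co-chaperonin HSPE1, which has near-identical copies, fell by 1.94 on the log2 scale. In the ER list 8 of 30 rose, close to the 29.5% of all genes tested, and 18 fell (median -0.23). HSPA5, the ER chaperone BiP, was at 63.4, 62.6 and 62.1 FPKM in combination cells and 134, 135 and 140 FPKM in ibrutinib cells (adjusted p = 7.7e-09). EDEM1, which clears misfolded glycoproteins, rose by 1.18, to 140, 150 and 151 FPKM in combination cells, against 62.2, 66.9 and 63.2 FPKM in ibrutinib cells. PSMD1, a subunit of the proteasome base, fell by 1.13 on the log2 scale.

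Genes of energy metabolism were lower too. Of 24 glycolytic and pentose phosphate genes 16 fell and 1 rose (median -0.42). ENO1, an enolase, fell by 1.56 on the log2 scale and SLC2A3, the glucose carrier GLUT3, rose by 1.25. Of 45 nuclear-encoded respiratory chain genes 37 fell and none rose (median -0.45), led by ATP5MC1, a subunit of the ATP synthase ring, with -1.63. Of 13 messengers encoded in mitochondria 6 rose and none fell (median 0.07), a count that was 1 without combination library 2 or ibrutinib library 1, 2 without ibrutinib library 2, 3 without combination library 3 or ibrutinib library 3, and 3 after quantile scaling. MT-CYB, cytochrome b, changed by 0.49 ± 0.107. In the list of NRF2 and glutathione genes 6 of 20 rose, close to the 29.5% of all genes tested, and 12 fell (median -0.34). GSTP1, a glutathione transferase, fell by 1.74 and TXN, thioredoxin, by 1.33 on the log2 scale, and FTH1, the ferritin heavy chain, rose by 0.69.

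Genes tied to rest, autophagy and p53 rose. In the list of FOXO targets and quiescence genes 17 of 22 rose and 2 fell (median 0.69). YPEL3, a growth suppressor, had 13.4, 15.2 and 16 FPKM in combination libraries, against 2.65, 3.16 and 2.61 FPKM in ibrutinib libraries (change 2.06 ± 0.11). KLF2, a transcription factor of lymphocyte quiescence (ENSG00000127528), had 18.2, 30.7 and 31.6 FPKM with the combination, against 6.95, 5.94 and 5.15 FPKM with ibrutinib. Library 1 was well below the other 2 combination libraries and above every ibrutinib library; the change was 1.96 ± 0.188, or 2.20 without it. SOD2, the mitochondrial superoxide dismutase, fell by 0.65 on the log2 scale. Of 34 autophagy and lysosome genes 22 rose and 3 fell (median 0.33), led by the autophagosome protein MAP1LC3B, at 57.5 FPKM in each combination library and 17.7, 16.8 and 16.5 FPKM in ibrutinib libraries (change 1.70 ± 0.049). OPTN, an autophagy receptor, rose by 1.23.

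Of 25 p53 targets 15 rose and 2 fell (median 0.27). TP53INP1, which takes part in autophagy and cell death, had 26.7, 27.0 and 27.0 FPKM in combination cells, against 7.70, 7.81 and 7 FPKM in ibrutinib cells (change 1.72 ± 0.050). ZMAT3, an RNA-binding protein, rose by 1.53, and TRIAP1 fell by 0.69 on the log2 scale. Of 16 BCL2 family genes 5 rose and 4 fell (median 0.10), shares close to the 29.5% and 27.7% of all genes tested, and 8 rose with TPM and with quantile scaling. The BH3-only gene BMF had 6.36, 6.87 and 6.82 FPKM with the combination and 1.27, 1.47 and 1.58 FPKM with ibrutinib, a change of 1.66 ± 0.089. BID, another BH3-only gene, had 2.34, 2.92 and 2.31 FPKM with the combination and 7.26, 7.73 and 7.60 FPKM with ibrutinib, a change of -1.28 ± 0.079. Both separated the groups fully and in opposite directions; BCL2L11 (BIM) fell by 0.62 on the log2 scale.

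B cell genes were mostly higher. In pre-B cell receptor signalling 17 of 25 rose and 3 fell (median 0.36). CD79A, the signalling chain of the receptor (ENSG00000105369), had 259, 330 and 331 FPKM in combination libraries and 86.5, 80.9 and 83.2 FPKM in ibrutinib libraries (change 1.86 ± 0.126, or 1.97 without combination library 1). CD72, a co-receptor that restrains signalling, rose by 1.84. IGLL1, the lambda5 part of the surrogate light chain, which has near-identical copies, went against them, with 220, 264 and 260 FPKM in combination libraries, against 826, 872 and 876 FPKM in ibrutinib libraries (change -1.79 ± 0.077, adjusted p = 2.4e-08). BTK, the target of ibrutinib, had 50, 49.3 and 49.0 FPKM with the combination and 44.5, 46.8 and 46.5 FPKM with ibrutinib. The groups did not overlap, but the change of 0.10 (adjusted p = 0.046) was lost when any one of the 6 libraries was left out (adjusted p = 0.066 to 0.15).

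Among 29 transcription factors of the B lineage 21 rose and 3 fell (median 0.42). BACH2, a repressor that holds pre-B cells short of plasma cell fate, had 85.7, 90.3 and 90.7 FPKM with the combination, against 39.0, 36.4 and 35.3 FPKM with ibrutinib. ID3, an inhibitor of E proteins, fell to 9.5, 9.95 and 10.4 FPKM in combination libraries, against 37.9, 41.2 and 37.6 FPKM in ibrutinib libraries. Of the 6 recombinase and surrogate light chain genes 2 rose and 2 fell (median -0.06, and above 0 with TPM, 0.04, and quantile scaling, 0.18). RAG1, the recombinase, had 160, 150 and 156 FPKM with the combination and 155, 148 and 145 FPKM with ibrutinib, with overlapping libraries (change 0.05, adjusted p = 0.34). It was called higher with TPM, by 0.16 (adjusted p = 0.04), and with quantile scaling, by 0.35 (adjusted p = 0.00046). RAG2 rose by 0.20 and VPREB1, the other part of the surrogate light chain, fell by 0.37 on the log2 scale. Of 11 markers of plasma cells and mature B cells 4 were expressed, of which 1 rose and 3 fell, with a summed level of 156 to 174 FPKM with the combination and 204 to 211 FPKM with ibrutinib.

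MHC class II, by which B cells present peptides, rose: 10 of 12 genes were higher and 1 lower (median 0.91). HLA-DMB, a peptide exchange subunit, had 7.07, 6.97 and 7.05 FPKM in combination libraries, against 1.73, 1.92 and 1.59 FPKM in ibrutinib libraries, and HLA-DMA rose by 1.25. RFXAP, a subunit of the factor that binds class II promoters, fell by 0.30 on the log2 scale, whereas CIITA, the class II transactivator, chosen after its values were seen, stood at 16.4 ± 1.51 FPKM with the combination and 8.12 FPKM with ibrutinib (change 0.92). In the interferon list 15 of 24 rose and 4 fell (median 0.30); IRF7, a transcription factor of the interferon response, rose by 1.38, and IFI44 fell by 0.80 on the log2 scale. Of 24 leukaemia surface antigens 11 rose and 2 fell (median 0.23). ITGA6, an integrin subunit of laminin receptors, had 18.8, 18.1 and 17.9 FPKM with the combination and 8.13, 7.80 and 7.28 FPKM with ibrutinib. Of 21 immediate early and ERK feedback genes 13 rose and 1 fell (median 0.29), with JUND, an AP-1 subunit, higher by 1.10 and DUSP2, a MAP kinase phosphatase, lower by 0.88 on the log2 scale.

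**Figure D2:**
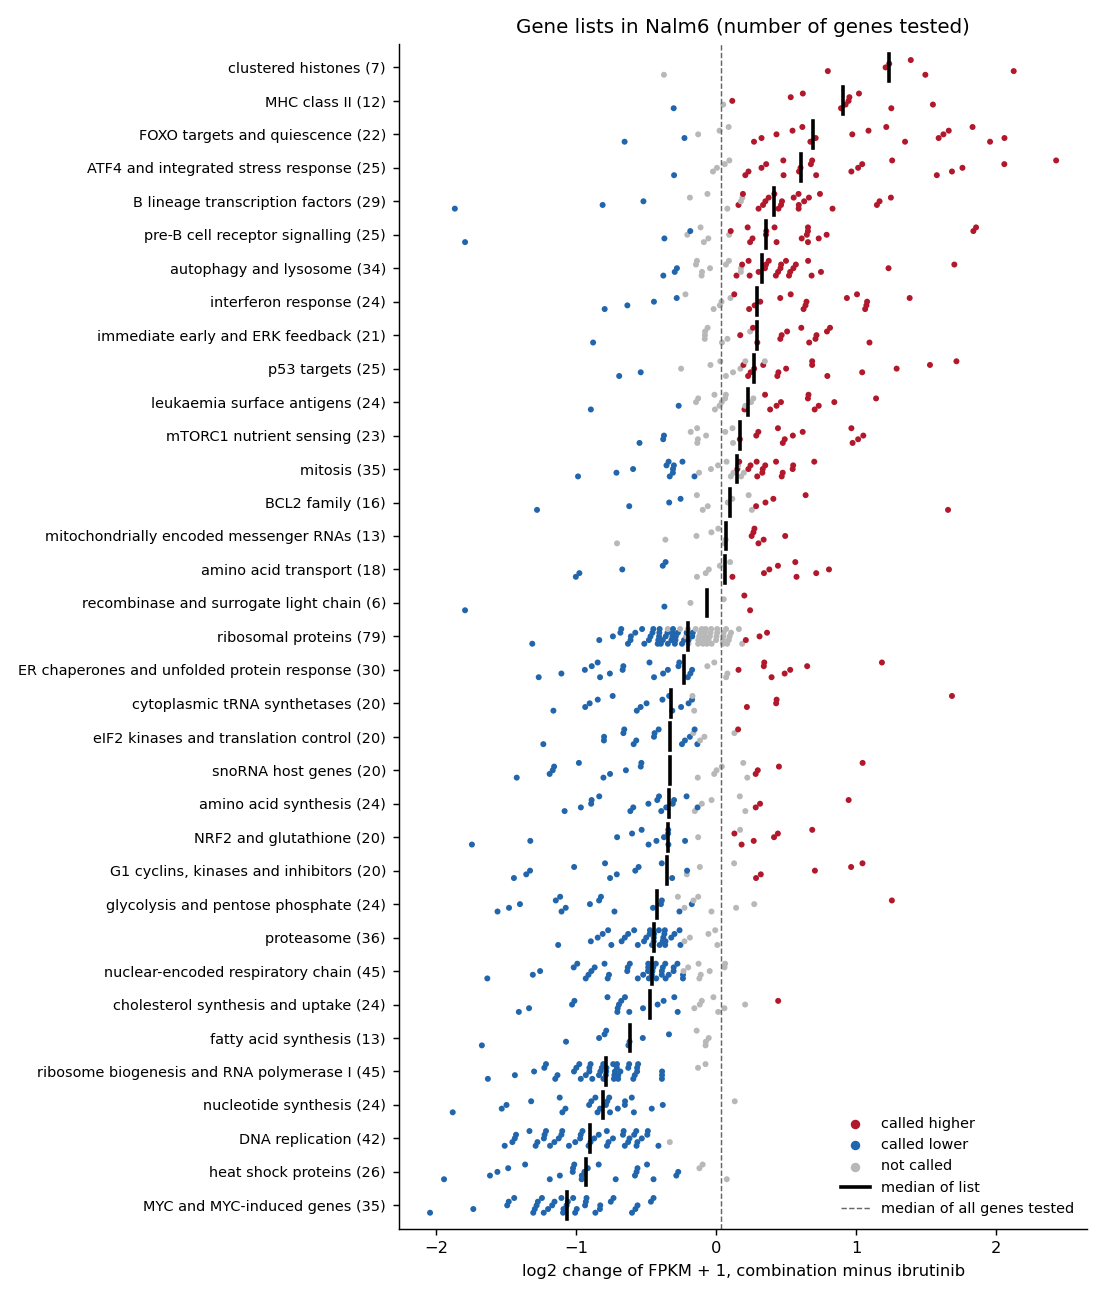
Change of each tested member (points) of the 35 gene lists, combination minus ibrutinib, in log2(FPKM + 1), with list medians marked and the median of all genes dashed at 0.03. Clustered histones (median 1.24) and MHC class II (0.91) lie at the top and the MYC list (-1.07) at the bottom. Without the expression filter the median of clustered histones was 0.13. The median of ribosomal proteins (-0.20) turned to 0.04 and that of recombinase genes (-0.06) to 0.18 after quantile scaling.

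Some of the largest single changes lay outside these lists. OSCAR, a collagen receptor of the leukocyte receptor family, had 34.9, 51.6 and 50.9 FPKM in combination cells, against 8.66, 9.65 and 7.54 FPKM in ibrutinib cells (change 2.27 ± 0.144, or 2.45 without combination library 1). LGALS1, galectin 1, had 11.3, 10.4 and 11.7 FPKM in combination cells, against 1.53, 1.48 and 2.19 FPKM in ibrutinib cells (change 2.16 ± 0.115). Every combination library was above every ibrutinib library for both, as the rule that named them required. TSPAN8, a tetraspanin, rose by 2.10 and GPR18, a lipid receptor of lymphocytes, by 2.05. The short RNA genes RNU6-1053P, MIR4540 and MIR4324 also passed, on few reads: RNU6-1053P had 5.21, 6.68 and 12.7 FPKM with the combination and 1.79, 0 and 0.627 FPKM with ibrutinib. MIR4540 (change 2.19) was no longer called without combination library 3 or without ibrutinib library 1 or 3 (adjusted p = 0.060 to 0.062). On the lower side stood ACOT7, an acyl-CoA thioesterase (-1.95), FABP5, a fatty acid binding protein (-1.85), and CHAC2, a glutathione-degrading relative of CHAC1 (-1.71). FABP5 had 31.1, 26.4 and 25.4 FPKM with the combination, against 95.8, 102 and 108 FPKM with ibrutinib.

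Whether the change depended on ibrutinib was asked by setting it against the change of asparaginase alone against untreated cells, on 6 other Nalm6 libraries. Asparaginase alone called 7446 of 13237 genes (56.3%), of which 3736 rose (28.2%) and 3710 fell (28.0%), or 5081 and 2544 with TPM. Both comparisons called 5897 genes, and 5818 had the same sign, which is 76.9% of the calls with ibrutinib and 78.1% of those without. Across genes the changes correlated with r = 0.817 and rho = 0.820, as a description, since genes are not independent replicates. The difference between the changes (interaction) was called for 738 genes (5.58%), 396 more positive with ibrutinib (2.99%) and 342 more negative (2.58%), or 254 and 460 with TPM. The count was 974 without combination library 1, and 672 of the 738 calls (91.1%) kept their direction and side there. It fell to 490 without combination library 2, 458, 430 and 462 without ibrutinib libraries 1, 2 and 3, 454 and 446 without asparaginase libraries 2 and 3, and 455 without untreated library 3, and was 1625 with GC and length correction.

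**Figure D3:**
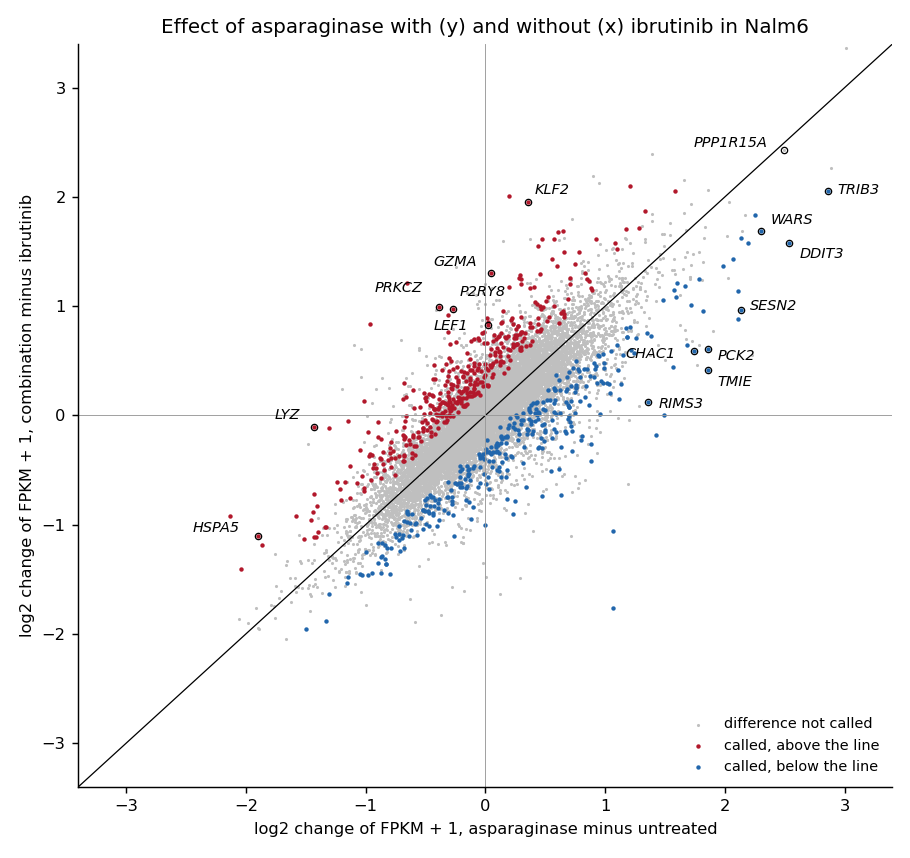
Change of each gene with ibrutinib (combination minus ibrutinib, vertical axis) against the change without it (asparaginase minus untreated, horizontal axis), both in log2(FPKM + 1), in Nalm6. Most genes lie along the diagonal (r = 0.817); coloured points are genes whose changes differed, 396 above it and 342 below it among all genes tested.

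Stress response genes changed less on top of ibrutinib. In the ATF4 list the interaction was negative and called for 15 of 25 genes and positive for 1; the median change was 0.60 with ibrutinib and 0.99 without it. Outside the list PCK2, the mitochondrial PEP carboxykinase, rose by 0.61 with ibrutinib and by 1.86 without it (interaction -1.25, adjusted p = 9.8e-05). TRIB3 rose by 2.06 with ibrutinib and 2.86 without it (interaction -0.81, adjusted p = 0.013). For DDIT3 these values were 1.58 with it and 2.54 without it (interaction -0.96, adjusted p = 0.0014). For CHAC1 they were 0.59 with it and 1.74 without it (interaction -1.15, adjusted p = 0.0052). The level before asparaginase was higher with ibrutinib for both. DDIT3 had means of 19.1 FPKM with ibrutinib and 10.1 FPKM untreated, and 58.9 FPKM with the combination and 63.3 FPKM with asparaginase alone. CHAC1 had 8.8 FPKM with ibrutinib and 4.24 FPKM untreated, and 13.7 FPKM with the combination and 16.5 FPKM with asparaginase alone. Without ibrutinib, TRIB3 stood at 153, 186 and 182 FPKM in asparaginase libraries and at 24.2, 20.8 and 24.0 FPKM in untreated libraries, a wider gap than between the combination and ibrutinib libraries above. PPP1R15A, in contrast, rose by 2.43 with ibrutinib and 2.50 without it (interaction -0.07, adjusted p = 0.78). Amino acid synthesis genes had 12 negative and 1 positive interaction among 24, transporters 7 and none among 18, and synthetases 9 and none among 20. WARS rose by 1.68 with ibrutinib and 2.31 without it, and GPT2 fell by 0.30 with it and rose by 0.44 without it. SESN2, a leucine sensor of mTORC1, had an interaction of -1.17.

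**Figure D4:**
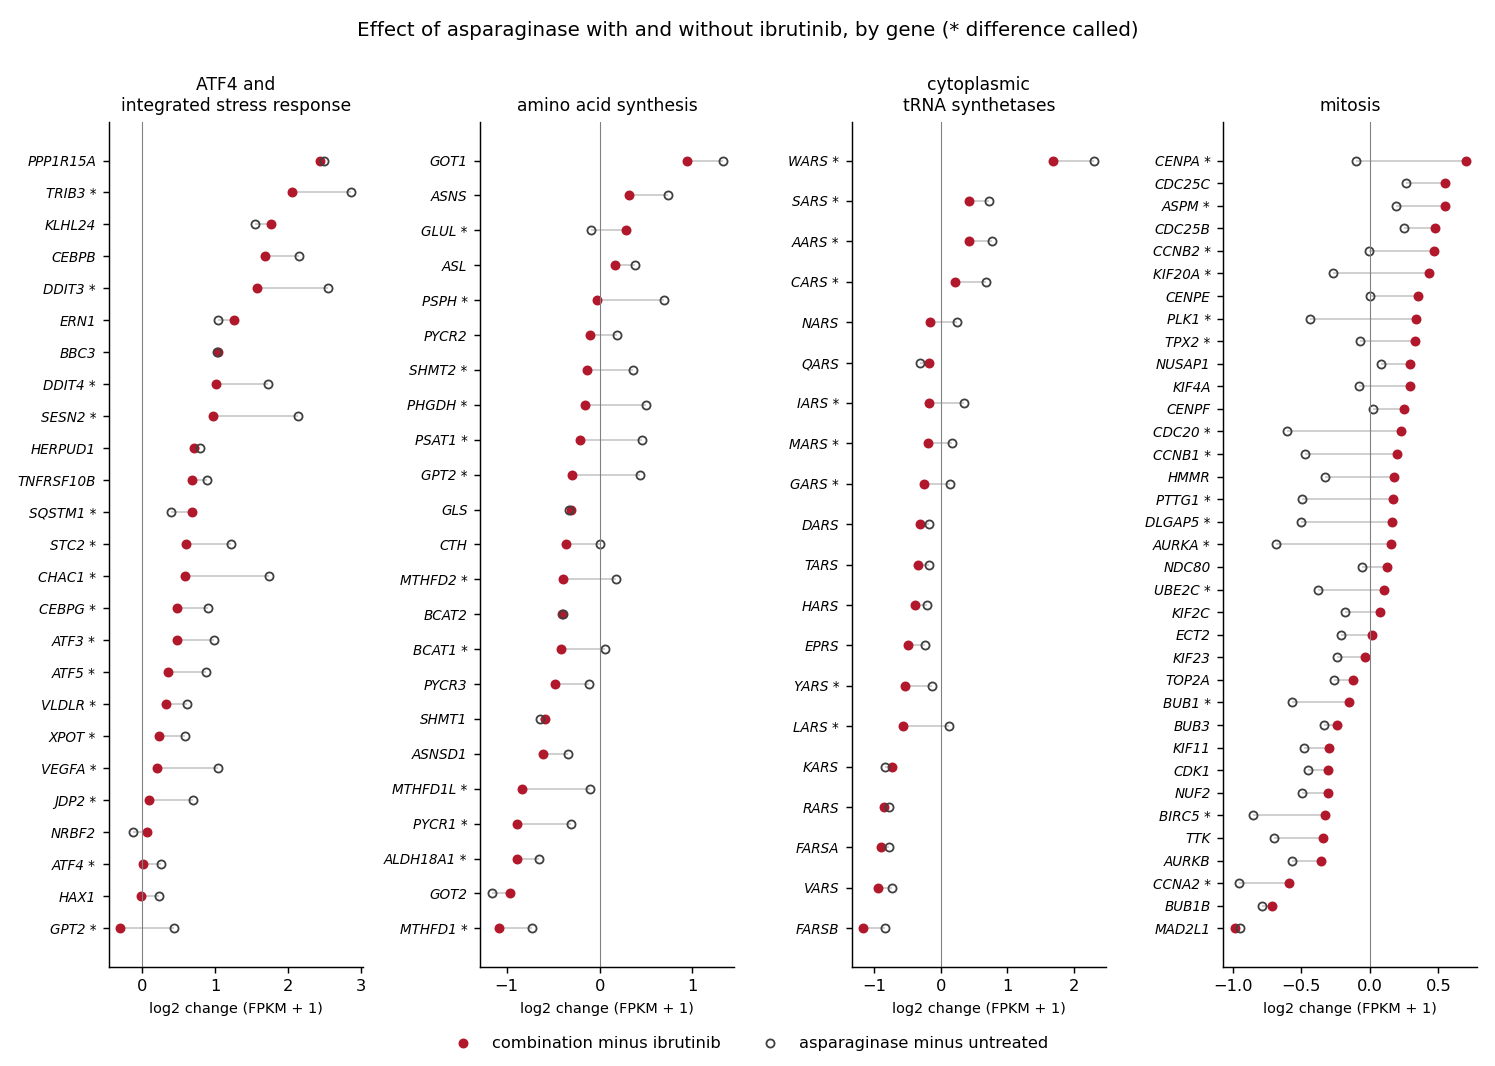
Changes in log2(FPKM + 1) of members of the ATF4, amino acid synthesis, transfer RNA synthetase and mitosis lists, with ibrutinib (filled, combination minus ibrutinib) and without it (open, asparaginase minus untreated); stars mark called differences. For TRIB3 the filled point (2.06) lies left of the open one (2.86), and for CENPA the filled point (0.70) lies right of the open one (-0.10).

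Mitosis genes were the reverse. The interaction was positive and called for 15 of 35 and negative for none: with asparaginase alone 3 rose and 23 fell (median -0.33). CENPA changed by 0.70 with ibrutinib and -0.10 without it (interaction 0.80, adjusted p = 0.0036). Not every member differed, and 11 of the 35 fell with ibrutinib. MAD2L1 changed by -0.99 with ibrutinib and -0.95 without it (interaction -0.04, adjusted p = 0.90). AURKA, CDC20 and PLK1, regulators of mitosis chosen after their values were seen, changed by 0.15, 0.23 and 0.33 with ibrutinib and by -0.69, -0.61 and -0.43 without it. B lineage transcription factors had 9 positive and 1 negative interaction among 29, and LEF1, a pre-B cell factor also chosen after its values were seen, changed by 0.83 with ibrutinib and 0.02 without it. Heat shock proteins had 9 positive and 1 negative among 26; with TPM 5 were positive. HSPA8 fell by 1.19 with ibrutinib and by 1.87 without it on the log2 scale. HSPA5 likewise fell by 1.10 with ibrutinib and 1.90 without it (interaction 0.80, adjusted p = 5.7e-05). Growth genes fell in both settings: with asparaginase alone 32 of 35 MYC-list genes (median -0.73), 44 of 45 ribosome biogenesis genes (median -0.66) and 39 of 42 replication genes (median -0.68) were lower. Of the MYC list 10 of 35 had a negative interaction and none a positive one (18 after quantile scaling), but MYC itself, at -1.01 with ibrutinib and -0.57 without it, was not among them (adjusted p = 0.12). RAG1 changed by 0.05 with ibrutinib and fell by 0.43 without it (interaction 0.49, adjusted p = 0.0027).

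Single genes differed more. KLF2 rose with ibrutinib, but without it stood at 13.1, 17.5 and 16.2 FPKM in asparaginase libraries and 12.9, 10.5 and 12.5 FPKM in untreated libraries (change 0.35, adjusted p = 0.14; interaction 1.60, adjusted p = 0.0067). PRKCZ, an atypical protein kinase C, had 6.08, 6.14 and 6.16 FPKM in combination libraries and 2.64, 2.40 and 2.69 FPKM in ibrutinib libraries, whereas it had 1.09, 1.16 and 1.18 FPKM in asparaginase libraries and 1.92, 1.66 and 1.82 FPKM in untreated libraries (interaction 1.38, adjusted p = 3.8e-05). The direction was thus opposite in the 2 comparisons, without overlap in either. P2RY8, a receptor that confines B cells to germinal centres, changed by 0.97 with ibrutinib and -0.27 without it (interaction 1.25). GZMA, a granzyme of T and NK cells, rose by 1.30 with ibrutinib and changed by 0.05 without it. Of 14 T and NK cell markers 2 were expressed (TRAC and NKG7), 8 were listed at 0 and 1 rose, with a summed level of 4.55 to 6.83 FPKM with the combination and 1.90 to 2.71 FPKM with ibrutinib; their part in the GZMA value was not tested. TMIE, a protein of the hair cell channel complex, and RIMS3, a synaptic protein, had interactions of -1.45 and -1.24. RIMS3 changed by 0.12 with ibrutinib (adjusted p = 0.16, and adjusted p = 0.018 with TPM) and rose by 1.36 without it.

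The same comparison in Sem used 3 combination and 3 ibrutinib libraries. The change differed between Nalm6 and Sem for 5954 of 15116 genes tested over both lines (39.4%), 2931 more positive in Nalm6 (19.4%) and 3023 more negative (20%), or 3620 and 2299 with TPM. All 35 genes of the MYC list, 43 of 45 ribosome biogenesis genes and 42 of 42 replication genes were more negative in Nalm6. MYC was at 170, 171 and 168 FPKM in Sem combination libraries and 170, 169 and 172 FPKM in Sem ibrutinib libraries, a difference of -1.0 between the lines (adjusted p = 1.1e-06). CDC6 had 12.4, 12.1 and 11.6 FPKM in Sem with the combination and 13.9, 14.0 and 13.7 FPKM in Sem with ibrutinib. Transfer RNA synthetases were more negative in Nalm6 for 19 of 20 and amino acid synthesis genes for 18 of 25, while mitosis genes were more positive for 25 of 35, B lineage factors for 22 of 32 and FOXO genes for 15 of 25. In MHC class II 10 of 13 were more positive in Nalm6.

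In the ATF4 list 7 genes were more positive and 12 more negative in Nalm6 (median -0.04), or 10 and 9 after quantile scaling (median 0.00). PPP1R15A had 13.6, 14.4 and 14.3 FPKM in Sem combination libraries and 10.0, 11.4 and 11.4 FPKM in Sem ibrutinib libraries, and the difference of 2.09 between the lines (adjusted p = 3.3e-10) was far beyond the spread of either. ATF5, a relative of ATF4, differed in the other direction: Nalm6 had 227, 261 and 260 FPKM with the combination and 190, 199 and 194 FPKM with ibrutinib, and Sem had 94.2, 90.7 and 88.6 FPKM with the combination and 13.3, 13.5 and 13.5 FPKM with ibrutinib (difference -2.32). CHAC1 changed more in Sem, with 12, 15.9 and 14.4 FPKM with the combination and 1.94, 1.87 and 2.33 FPKM with ibrutinib (difference -1.71). The change of TRIB3 in log2(FPKM + 1) was not called different between the lines (-0.04, adjusted p = 0.88). That scale understates the change of low genes, so equal fold changes in the lines do not follow from it. IGLL1 stood at 322, 332 and 345 FPKM in Sem combination libraries and 316, 326 and 324 FPKM in Sem ibrutinib libraries, a difference of -1.84 between the lines. KLF2 had 4.91, 4.88 and 4.40 FPKM in Sem combination libraries and 4.80, 4.08 and 5.65 FPKM in Sem ibrutinib libraries (difference 1.98). LGALS1, which rose in Nalm6, stood at 66.7, 76.5 and 74.5 FPKM in Sem with the combination and 81.3, 80.3 and 79.2 FPKM in Sem with ibrutinib (difference 2.30).

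**Figure D5:**
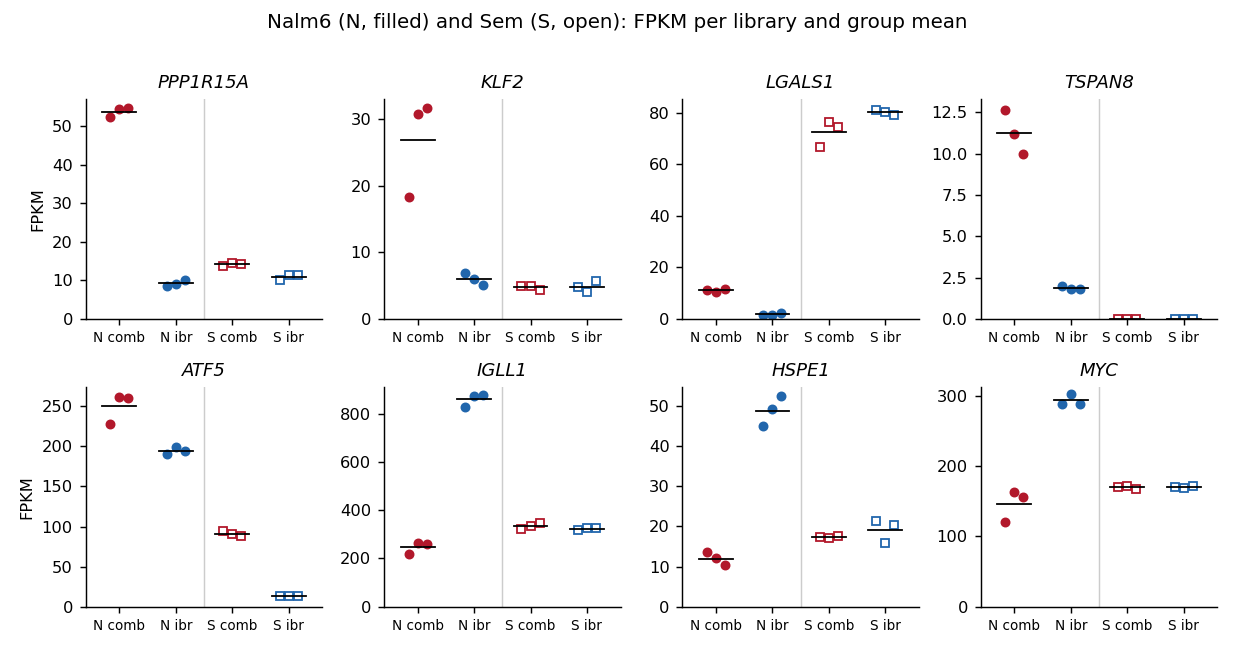
FPKM of 8 genes in combination and ibrutinib libraries of Nalm6 (filled) and Sem (open), 1 point per library, with bars at group means and linear axes from 0. MYC falls in Nalm6 (121 to 164 with the combination, 288 to 303 with ibrutinib) and lies at 168 to 172 in all 6 Sem libraries; ATF5 differs more in Sem (88.6 to 94.2 with the combination, 13.3 to 13.5 with ibrutinib).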

How the data were processed

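RNA was extracted on RNeasy columns and libraries were made with a NEBNext Ultra kit, per the labels' protocols; strandedness was not stated, so overlapping or antisense genes and near-identical copies (HSPE1, NME1, PTMA pseudogenes, histones, HLA genes, ribosomal proteins, IGLL1) may share reads. The authors deposited 1 value per gene and library in another form than plain FPKM: it was FPKM made with fastp, STAR and featureCounts on hg38, per the submitters' processing notes (versions not given in the sources used here), but all 299165 deposited values of 1 or more (21.2%) had lost the decimal point. Each power of 10 was restored from gene length, whole reads (tolerance 0.01) and agreement between the libraries of a line; the prior for agreement (Student t, 5 degrees of freedom) was loosened once after values of MRPL16 and KNL1 had been seen. In the 6 libraries compared, 114 of 74714 restored values had a posterior under 0.99, in 79 genes, which are not named here, and among restored counts from 100 upwards the share ending in 0 was 9.82% (10% for correct counts). The deposited scaling per library differed from median-of-ratios factors by 0.9929 to 1.009.

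log2(FPKM + 1) was fitted with limma 3.58.1 in R 4.3.3 (moderated statistics with a mean-variance trend) on the 12 Nalm6 libraries, and on all 24 for the difference between lines, for genes with at least 1 FPKM in at least 3 libraries; p-values were adjusted by Benjamini-Hochberg over all genes. The fits were also run on simulated data in which most genes had no treatment effect, unlike these data, so no conclusion is drawn from that run. Python 3.11.15, numpy 2.4.6, pandas 2.3.3 and matplotlib 3.10.9 served for the rest. One gene that the rule names is not reported here. The gene lists and the rule for named genes were chosen with earlier results of these data known. Genes were named when they were among the 12 largest rises or falls (at least 5 FPKM in the higher group, groups not overlapping, decimals sure, no clone name), the 2 largest called rises or falls of a list, the 5 largest differences in each direction of the 2 other contrasts, or 1 of 15 fixed genes; any other is marked as chosen after its values were seen. Alternatives were TPM and quantile scaling, limma-voom on recovered reads, a pseudocount of 0.1, other filters, other samples in the fit, GC and length correction, a replicate block, and leaving out each library.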

Additional observations from a re-analysis of the deposited data

Results flagged for a closer look

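Several results stood out because the same contrast gave different changes in 2 settings, by a test of the difference. The change on adding asparaginase differed with and without ibrutinib in Nalm6 for 738 genes, and between Nalm6 and Sem for 5954 genes. The values that follow are those of the 5 largest differences in each direction and, with and without ibrutinib, of the 15 fixed genes; further named genes had called differences that are not listed. The change was more positive with ibrutinib for KLF2 (by 1.60 on the log2 scale), PRKCZ (1.38), LYZ (1.33), GZMA (1.26), P2RY8 (1.25), HSPA5 (0.796), HSPA8 (0.681), HMGCS1 (0.630), RAG1 (0.487) and TP53INP1 (0.431). LYZ, a lysozyme of myeloid cells, changed by -0.10 with ibrutinib (adjusted p = 0.33) and by -1.43 without it; summed myeloid markers were 9.18 to 10.4 FPKM with the combination and 9.51 to 11 FPKM with ibrutinib, and their part was not tested.

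The change was more negative with ibrutinib for TMIE (-1.45), SAPCD1-AS1 (-1.30), PCK2 (-1.25), RIMS3 (-1.24), SESN2 (-1.17), CHAC1 (-1.15), DDIT3 (-0.962), TRIB3 (-0.805) and ATF4 (-0.248). It was more positive in Nalm6 than in Sem for RNU6-1053P (2.57), LGALS1 (2.30), TSPAN8 (2.10, listed at 0 in Sem), PPP1R15A (2.09) and KLF2 (1.98), and more negative for ATF5 (-2.32), PTMAP4 (-1.90), IGLL1 (-1.84), HSPE1 (-1.81) and PTMAP5 (-1.79). PTMAP4 and PTMAP5 are pseudogenes of PTMA and may hold its reads. With 3 libraries a group, single libraries could not be tested as outliers.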

How the results depend on the processing

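Of 2532 values of named genes under alternatives 2488 kept their direction and their side of the threshold, 32 were no longer called, 11 became called and 1 turned: CD9, called at -0.27, was at 0.027 after quantile scaling (adjusted p = 0.63). With a mean of at least 5 FPKM 7629 genes were tested for adding asparaginase, 2181 were called higher and 2973 lower, a balance on the lower side, against 3905 higher and 3661 lower of 13237. The interaction count of 738 was 1360 with all 24 libraries fitted, 1625 with GC and length correction and 1435 with replicate block and that correction; the cause was not tested. Leaving out 1 library gave 6692 to 7605 genes for adding asparaginase (3384 to 3926 higher, 3270 to 3679 lower), 430 to 974 for the interaction, 5376 to 6219 for the difference between lines and 6604 to 6928 for asparaginase alone. The interaction count fell by over 1.5 times without ibrutinib libraries 1, 2 and 3 (458, 430 and 462), untreated library 3 (455), asparaginase libraries 2 and 3 (454 and 446) or combination library 2 (490). With the replicate number as a block 7421 genes were called for adding asparaginase and 578 for the interaction; same-numbered libraries correlated at -0.0727 to 0.035, so the numbers were not taken to pair them. Low values are limited by depth, where 1 read per kb was worth 0.0534 to 0.0634 FPKM.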

Other observations

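The largest rise of any gene tested was that of AL713998.1, a long intergenic RNA at chr6:67887646-67889339 (minus strand, GRCh38), chosen after its values were seen since it carries only a clone name. It had 67.2, 82.0 and 79.1 FPKM in combination libraries, against 7.20, 5.88 and 6.36 FPKM in ibrutinib libraries, a change of 3.37 ± 0.091 (adjusted p = 2.7e-09). The groups did not overlap. Asparaginase without ibrutinib raised it by 3.01, and the 2 changes did not differ by the test (interaction 0.35, adjusted p = 0.15). The change was more positive in Nalm6 than in Sem by 2.83 (adjusted p = 1.8e-08).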
